A study of Canis lupus familiaris with 6 samples.

Results

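The 2-oxoglutarate dioxygenases outside the HIF and collagen hydroxylases are the subject here: the histone demethylases with a JmjC domain, the TET enzymes, the AlkB family with FTO, and related hydroxylases of proteins, tRNA and small molecules. The members are given by name, as 44 gene symbols. Of these, 41 had a row among the 29822 genes of the files, and all 41 passed the filter on low counts that left 15397 genes to test. PHF8, ALKBH8 and OGFOD3 matched no symbol and were not analysed here. They may be among the genes that carry an identifier in place of a symbol. The RNA was from CMM10, a line of canine malignant melanoma cells, with 3 libraries from hypoxia and 3 from normoxia. All 6 libraries share this 1 line, and no oxygen level or length of exposure is labelled. The labels do not say whether the libraries of a group came from separate cultures, so the p-values measure the spread between these samples, which may be technical.

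These enzymes use molecular oxygen, ferrous iron and 2-oxoglutarate, and release succinate and carbon dioxide as they hydroxylate their substrate. Hydroxylation of a methyl group on lysine, cytosine or adenine makes it unstable or a substrate for repair, which is how the chromatin and nucleic acid members remove or convert methyl marks. The prolyl hydroxylases that mark hypoxia-inducible factor (HIF) for degradation use the same chemistry. KDM3A, KDM4B and KDM4C are known as HIF target genes in other cells. KDM5A and KDM6A are known as demethylases whose activity falls when oxygen is scarce, which transcript levels do not measure.

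Hypoxia raised 18 of the 41 genes and lowered 8, while 15 did not pass the test. The largest rises were in histone demethylases of lysine methyl marks: KDM3A rose 3.04-fold, KDM4B 2.69-fold and KDM4C 2.41-fold. All 3 TET genes rose, as did the RNA demethylase ALKBH5 and the DNA repair enzyme ALKBH2. The falls were smaller, and the ribosomal oxygenase RIOX1, at 0.657 times its normoxia level, had the largest. Genes were called at an adjusted p below 0.05 (quasi-likelihood test of edgeR, Benjamini-Hochberg over all 15397 genes). Of all tested genes, 24.5% were called higher and 24.4% lower, against 43.9% and 19.5% of these 41. Called rises over 1.5-fold were found in 9 of the 41 (9.63% of all tested genes) and over 2-fold in 3 (4.81%). A called fall over 1.5-fold was found in 1 (2.58%). The median log2 change was 0.10 in the 41 genes and 0.00 in all genes, and the median absolute change was 0.27 against 0.23. Scaled by library size alone, 16 of the 41 were higher and 13 lower. With that scaling, 3076 of all 15397 tested genes were higher and 4862 lower. Over all genes, 38.8% of calls were then rises, against 50.1% with TMM factors, and the median of all genes moved by -0.07. From exon reads alone, 19 of the 41 were higher and 9 lower (24.4% and 23.8% of the 13458 genes tested). The range of CPM in the 3 hypoxia libraries lay above that of normoxia in 19 of the 41 genes (27.8% of all tested genes) and below it in 10 (27.5%).

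**Figure D1:**
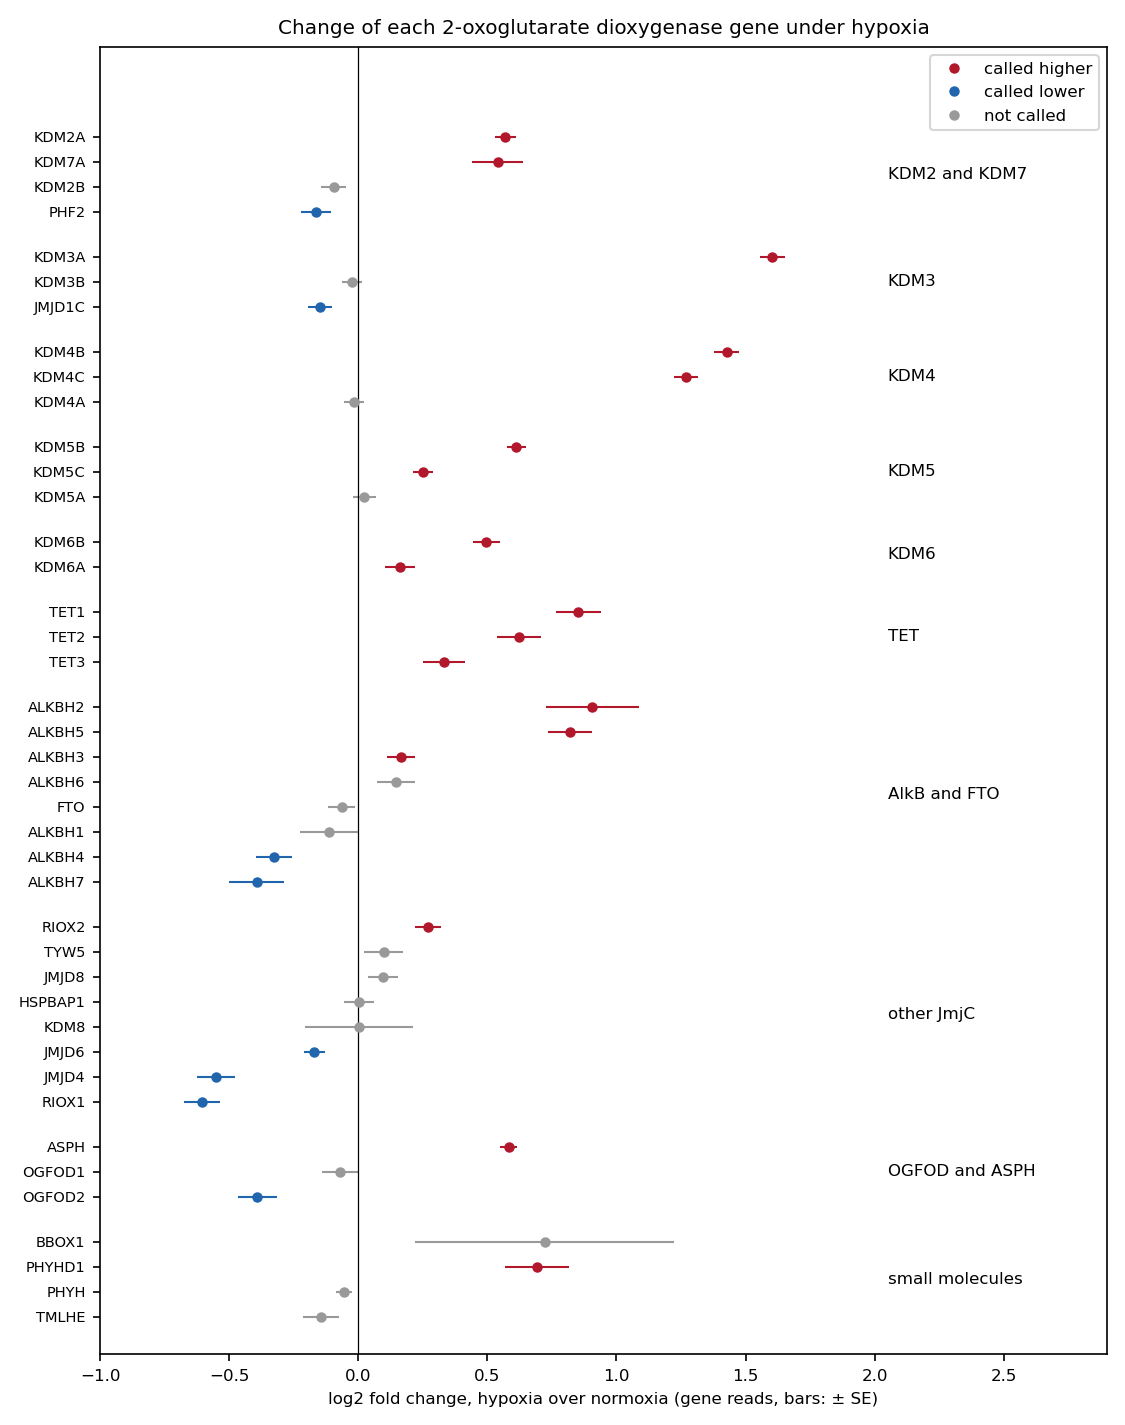
Log2 fold change of hypoxia over normoxia (x axis, bars ± SE, 3 libraries per condition) for each of the 41 tested genes, grouped by role on the y axis. Red points were called higher, blue lower and grey not called. KDM3A, KDM4B and KDM4C lie farthest to the right, at 1.60, 1.43 and 1.27, and RIOX1 lies lowest at -0.61.

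The libraries held 23196647 to 28804337 gene reads. The hypoxia markers had the direction of the labels, with CA9 higher by 3.77 on the log2 scale, SLC2A1 by 2.49 and VEGFA by 1.80. As to cell type, the melanocyte genes SOX10 (57.7 CPM), DCT (40.9 CPM) and MITF (29.8 CPM) were expressed, while MLANA (0.65 CPM), TYR (0.16 CPM) and TYRP1 (0.024 CPM) were near 0. Of the 9 melanocyte markers 7 were tested, with 2 called higher and 1 lower (24.5% and 24.4% of all tested genes). The summed level of the 9 was 230.5 to 240.3 CPM under hypoxia and 194.5 to 205.7 CPM under normoxia. Keratinocyte markers were present, and their sum, nearly all KRT14, was 4065 to 4748 CPM under hypoxia and 886.3 to 912.1 CPM under normoxia (both markers with a row, KRT14 and TP63, were called higher). Fibroblast markers summed to 5583 to 5761 against 4229 to 4512 CPM, with 3 of the 6 tested called higher. That sum was nearly all COL1A2 (4729 CPM on average) and COL1A1 (274 CPM), while COL3A1, PDGFRA, PDGFRB and DCN were at 1.18 to 9.81 CPM and LUM near 0 (0.17 CPM). The 3 fibroblast rises were in COL1A1 (log2 change 0.28), COL1A2 (0.40) and PDGFRA (2.01, from 1.52 to 6.12 CPM). Endothelial markers summed to 24.6 to 26.8 against 13.2 to 15.3 CPM, with 2 of the 4 tested called higher and PECAM1 near 0 (0.15 CPM). All 5 immune markers with a row were under 1 CPM, and MS4A1 had no reads. The part of these marker differences in the changes below was not tested, and in bulk RNA fewer cells of a type and less RNA per cell cannot be told apart.

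The KDM3 enzymes remove mono- and dimethyl groups from H3K9 (a lysine of histone H3), a mark of silent chromatin. KDM3A (ENSCAFG00000007522, chromosome 17, 38690979 to 38743739, minus strand, CanFam3.1) was at 199.9, 203 and 212 CPM in hypoxia replicates 1, 2 and 3, and at 74.2, 63.1 and 64.8 CPM in normoxia replicates 1, 2 and 3. CPM here are gene reads scaled to a common, TMM-adjusted library size, and libraries are listed in this order throughout. The groups were far apart, with every hypoxia library over 2-fold above every normoxia library. The mean was 205 ± 6.05 against 67.4 ± 5.99 CPM (SD, n = 3 per group), a log2 change of 1.60 ± 0.049 (SE, adjusted p = 2.87e-20). Of all tested genes, 98.0% had a lower or equal log2 change. KDM3B, a close paralog, was at 145 ± 2.50 against 148 ± 2.63 CPM and was not called (-0.02, adjusted p = 0.642). It passed as lower when scaled by library size alone (-0.09, adjusted p = 0.0415). JMJD1C, the third of this family, fell slightly, by 0.15 (adjusted p = 0.0103). That call was lost without hypoxia replicate 2 (-0.12, adjusted p = 0.0700) and without normoxia replicate 3 (-0.09, adjusted p = 0.107).

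The KDM4 enzymes remove trimethyl groups from H3K9 and H3K36. KDM4B (ENSCAFG00000018925, chromosome 20, 54634121 to 54820816, minus strand) was at 163, 179 and 157 CPM under hypoxia and at 61.8, 59.3 and 64.4 CPM under normoxia. Its groups did not overlap, and the log2 change was 1.43 ± 0.048 (adjusted p = 2.33e-21). Introns held 54.1% of its reads, and its model overlaps that of PTPRS, a receptor phosphatase on the opposite strand. The libraries do not mark strand, so reads of such a pair cannot be told apart. PTPRS, whose reads have the same limit, was not called (0.09 ± 0.040, adjusted p = 0.0726). KDM4B rose more from exon reads alone (1.78 ± 0.062) than from all gene reads. The part of PTPRS reads in the KDM4B values was not tested. KDM4C (ENSCAFG00000001434, chromosome 11, 27693536 to 28101801, plus strand) was at 117, 124 and 129 CPM under hypoxia and at 51.6, 50.01 and 51.7 CPM under normoxia. Again the groups were well apart, with a log2 change of 1.27 ± 0.047 (adjusted p = 5.55e-21). KDM4A (ENSCAFG00000004903, chromosome 15, 16521700 to 16571000, minus strand), the family's most abundant transcript under normoxia, was at 117, 119 and 115 CPM under hypoxia and at 118, 119.8 and 117 CPM under normoxia. Its groups overlapped and it was not called (-0.02, adjusted p = 0.768).

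Shares of each listed gene in its family were also compared. They were taken from TPM, which are scaled by exon length and so allow levels of different genes to be compared. KDM3A held 63.2%, 63.6% and 64.1% of the summed TPM of KDM3A, KDM3B and JMJD1C in the hypoxia libraries and 38.7%, 34.0% and 33.9% in the normoxia libraries. Under normoxia KDM3B (38.3% ± 2.40) and KDM3A (35.5% ± 2.76) were close. HR, which belongs to the same family but is not among the 44 names, was at 43.2 TPM under hypoxia and 37.5 TPM under normoxia. With HR in the sum, KDM3A held 48.3% ± 0.756 under hypoxia and 24.3% ± 2.24 under normoxia. HR itself then held 24.2% ± 0.863 under hypoxia and 31.5% ± 1.13 under normoxia. Under normoxia this was above both KDM3A and KDM3B (26.2% ± 1.61). The sum of the 3 listed genes was 136 ± 4.996 against 81.5 ± 3.15 TPM. Of the summed TPM of KDM4A, KDM4B and KDM4C, KDM4A held 64.0% ± 1.26 under normoxia and 37.8% ± 0.339 under hypoxia. KDM4B went from 15.7% ± 0.987 to 32.6% ± 1.47 and KDM4C from 20.2% ± 0.812 to 29.7% ± 1.28, so that the 3 shares were closer to each other under hypoxia. With KDM4D, also outside the 44 names, in the sum, KDM4A held 57.7% ± 0.968 under normoxia and 36.4% ± 0.429 under hypoxia. KDM4D itself then had the smallest share, 9.96% ± 0.285 under normoxia and 3.63% ± 0.297 under hypoxia, and so moved away from the others. The sum of the 3 listed genes was 124.5 ± 4.43 against 76.8 ± 1.38 TPM. The groups did not overlap in any of these shares and sums. The two-sided exact permutation p was 0.1 for those of the listed genes, the smallest that 3 against 3 libraries can give, so the shares are a description. Shares of a family add up to 100% and restate the changes of single genes given above. Of 14 shares and 5 sums computed over 5 families, only the share of TET2 overlapped between the conditions. Shares within a family depend on each other, so these are not separate outcomes. Of all tested genes, 27.8% had hypoxia CPM above normoxia without overlap, and 27.5% below.

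**Figure D2:**
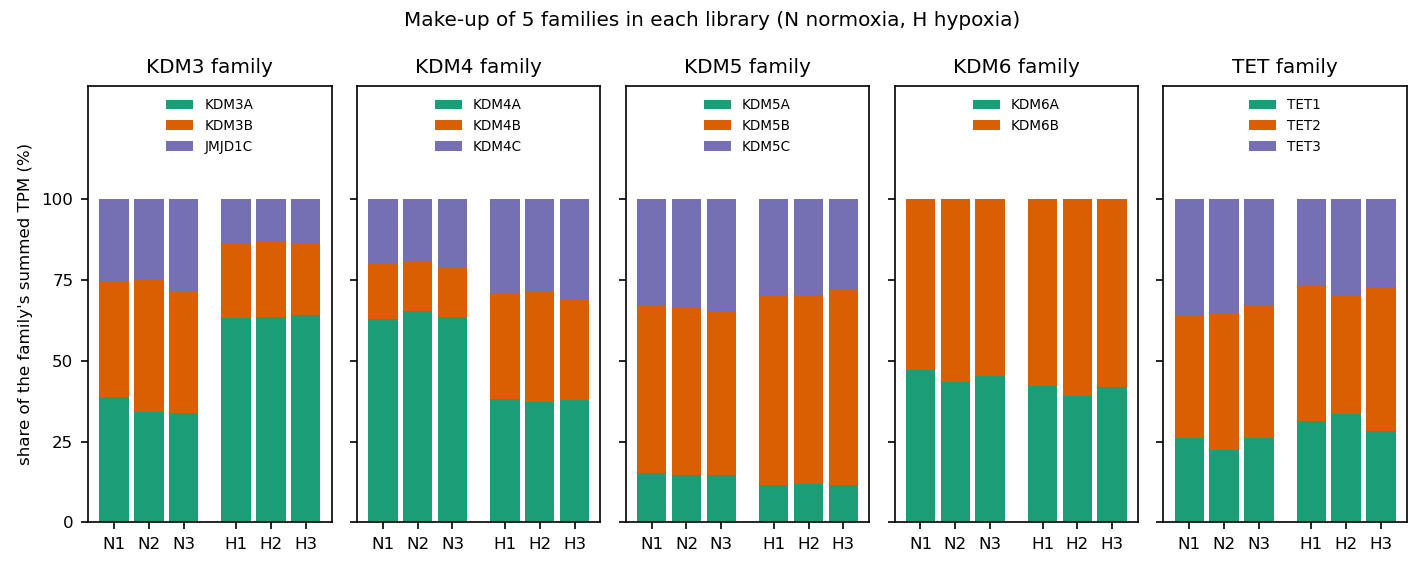
Share of each gene (stacked colours, y axis in percent) in the summed TPM of the listed genes of its family, for the 3 normoxia (N) and 3 hypoxia (H) libraries of each of 5 families. The KDM3A share goes from 33.9% to 38.7% under normoxia to 63.2% to 64.1% under hypoxia, and the KDM4A share is near 64.0% under normoxia and 37.8% under hypoxia. Shares in the KDM5, KDM6 and TET families differ by under 10 percentage points.

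The KDM2 and KDM7 families act on dimethyl marks, KDM2A and KDM2B on H3K36, KDM7A and PHF2 on H3K9. KDM2A (ENSCAFG00000011792, chromosome 18, 50181024 to 50291127, minus strand), which binds unmethylated CpG islands, was at 137, 144 and 144 CPM under hypoxia and at 97.7, 97.2 and 91.2 CPM under normoxia. The groups did not overlap, and the gene rose by 0.57 ± 0.042 on the log2 scale (adjusted p = 3.85e-13). KDM7A (ENSCAFG00000003990, chromosome 16, 8740492 to 8814402, plus strand) was at a lower level, with 15.1, 17.2 and 16.0 CPM under hypoxia and 10.6, 10.5 and 12.2 CPM under normoxia. It also rose (0.54 ± 0.098, adjusted p = 2.36e-05), and exon reads alone gave 0.88 ± 0.126. KDM2B, a subunit of a variant Polycomb complex, was not called (-0.10, adjusted p = 0.100) although its groups did not overlap. It passed as lower from exon reads only (-0.14, adjusted p = 0.0355) and when scaled by library size alone (-0.16, adjusted p = 0.00562), and its model overlaps those of ORAI1 and RNF34. PHF2 fell slightly, by 0.16 (adjusted p = 0.0196), a call lost without hypoxia replicate 3 (-0.13, adjusted p = 0.0906), normoxia replicate 1 (-0.14, adjusted p = 0.0898) or normoxia replicate 3 (-0.15, adjusted p = 0.0646).

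The KDM5 enzymes remove methyl groups from H3K4, a mark of active promoters, and the KDM6 enzymes remove the Polycomb mark on H3K27. KDM5B (ENSCAFG00000010452, chromosome 7, 330705 to 412386, plus strand) was at 288, 291 and 307 CPM under hypoxia and at 197, 195 and 188 CPM under normoxia. With 93.9 TPM on average it was the most abundant histone demethylase of the 41 genes, and it rose by 0.61 ± 0.036 (adjusted p = 1.69e-15). KDM5C, encoded on the X chromosome, rose (0.25 ± 0.038, adjusted p = 1.70e-06), and KDM5A was not called (0.02, adjusted p = 0.696). The summed TPM of the KDM5 family was 192 ± 5.79 under hypoxia and 144 ± 3.802 under normoxia, and the share of KDM5B in it was 59.3% ± 1.13 against 51.4% ± 0.746. KDM6B (ENSCAFG00000016817, chromosome 5, 32696211 to 32710666, plus strand), the inducible member of its family, was at 65.9, 73.7 and 69.1 CPM under hypoxia and at 47.2, 50.5 and 50.2 CPM under normoxia. All hypoxia libraries lay above all normoxia libraries, and the change was 0.50 ± 0.053 (adjusted p = 2.30e-09). KDM6A rose by 0.16 (adjusted p = 0.0212), a call lost without hypoxia replicate 3 (0.115, adjusted p = 0.132), without normoxia replicate 2 (0.12, adjusted p = 0.135) and when scaled by library size alone (0.10, adjusted p = 0.177). From exon reads alone KDM6A rose by 0.26.

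The TET enzymes oxidise methylated cytosine in DNA, the first step of its active removal. TET1 (ENSCAFG00000013739, chromosome 4, 19768137 to 19889907, plus strand) was at 25.6, 29.6 and 26.4 CPM under hypoxia and at 16.5, 12.9 and 15.9 CPM under normoxia, a log2 change of 0.85 ± 0.087 (adjusted p = 1.21e-09). TET2 (ENSCAFG00000010876, chromosome 32, 26059693 to 26143536, plus strand) was at 28.6, 27.1 and 34.0 against 19.0, 17.9 and 21.5 CPM (0.62 ± 0.085, adjusted p = 6.28e-07). In both genes the lowest hypoxia library was above the highest normoxia library. TET3 rose by 0.33 ± 0.082 (adjusted p = 0.00104), from 17.5 ± 1.42 to 21.998 ± 1.33 CPM, and its model overlaps that of BOLA3. Levels of all 3 were low, at 4.83, 6.91 and 5.19 TPM on average for TET1, TET2 and TET3. Their sum was 20.1 ± 1.43 TPM under hypoxia and 13.8 ± 1.90 TPM under normoxia.

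**Figure D3:**
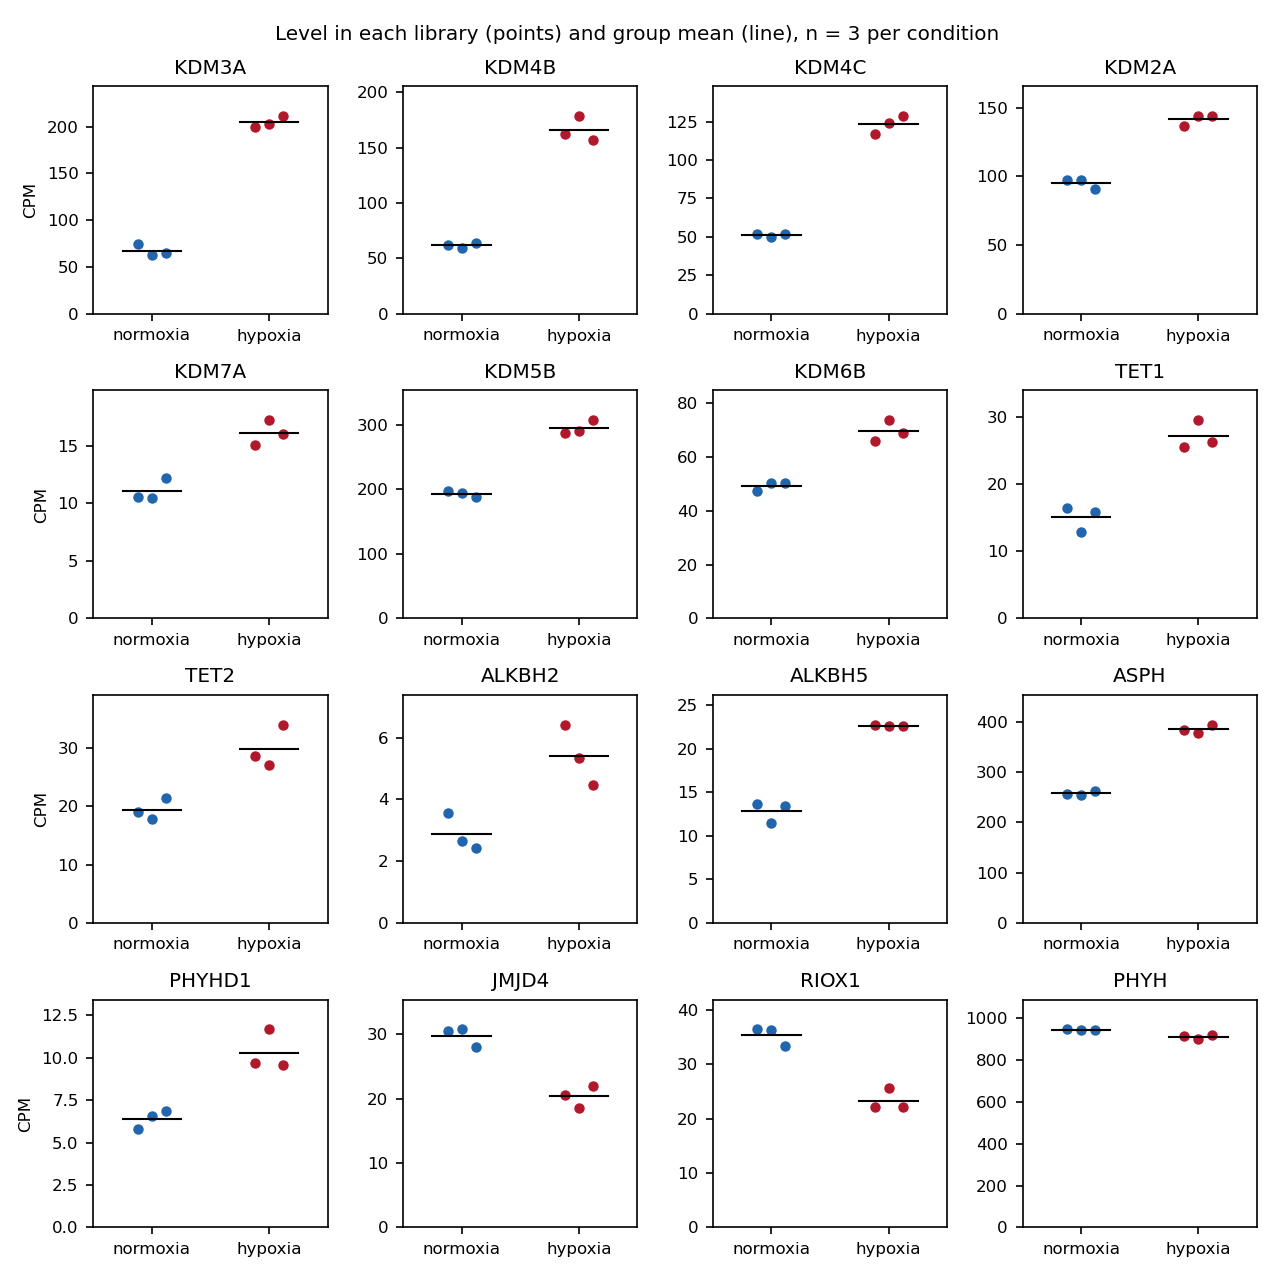
CPM (y axis, from 0) of 16 genes in each library, with points for the 3 libraries of each condition and a line at their mean. In the first 13 panels, from KDM3A to PHYHD1, all hypoxia points lie above all normoxia points, while JMJD4, RIOX1 and PHYH have hypoxia points below normoxia. PHYH differs by only 912 against 947 CPM and was not called.

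Of the AlkB family and FTO, 3 of 8 measured genes rose and 2 fell (37.5% and 25%, against 24.5% and 24.4% of all tested genes). ALKBH2 (ENSCAFG00000011152, chromosome 26, 17911763 to 17917788, plus strand), which repairs alkylated bases in DNA, was at 6.42, 5.34 and 4.46 CPM under hypoxia and at 3.55, 2.65 and 2.43 CPM under normoxia. It rose by 0.91 ± 0.182 (adjusted p = 9.53e-05), on 448 reads under hypoxia and 225 under normoxia. ALKBH5 (ENSCAFG00000018315, chromosome 5, 41343241 to 41364547, minus strand), which removes N6-methyladenosine (m6A) from RNA, was at 22.7, 22.6 and 22.6 CPM under hypoxia and at 13.6, 11.5 and 13.4 CPM under normoxia. The 3 hypoxia libraries were nearly equal and well above normoxia, and the change was 0.82 ± 0.085 (adjusted p = 1.03e-09). FTO, the other demethylase of methylated adenosine in RNA, was at 53.9 ± 1.85 against 56.2 ± 2.11 CPM and was not called (-0.06 ± 0.053, adjusted p = 0.340), but passed as lower when scaled by library size alone (-0.13, adjusted p = 0.0382). Introns held 64.3% of FTO reads, and from exon reads alone the value was -0.02. ALKBH3, which also repairs alkylated bases, was called higher by 0.17 (adjusted p = 0.0102). Introns held 72.6% of its reads. Exon reads gave -0.02 (adjusted p = 0.868) and intron reads 0.25 (adjusted p = 0.00111), and the difference between them did not pass (-0.28 ± 0.101, adjusted p = 0.103). The call was also lost without normoxia replicate 3 (0.11, adjusted p = 0.0989) and when scaled by library size alone (0.10, adjusted p = 0.119).

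ALKBH4 (ENSCAFG00000013712, chromosome 6, 7717282 to 7723048, plus strand), the most abundant of this family per length at 56.5 TPM, was at 21.9, 23.4 and 21.5 CPM under hypoxia and at 28.6, 28.4 and 26.8 CPM under normoxia. All hypoxia libraries were lower, and the gene fell by 0.33 ± 0.070 (adjusted p = 2.34e-04). The mitochondrial ALKBH7 fell by 0.39 ± 0.108 (adjusted p = 0.00281), but without normoxia replicate 3, its highest library at 17.2 CPM, the value was -0.26 (adjusted p = 0.0540). Its model overlaps that of MLLT1, which was called lower by 0.11. ALKBH1, an enzyme of tRNA and mitochondria, was not called (-0.11, adjusted p = 0.447). ALKBH6 was not called from gene reads (0.15, adjusted p = 0.107) but passed from exon reads (0.31, adjusted p = 0.0221).

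Among the other JmjC proteins, 3 of 8 fell and 1 rose (37.5% and 12.5%, against 24.4% and 24.5% of all tested genes). The product of RIOX1 hydroxylates a histidine of a protein of the large ribosomal subunit, in the nucleolus. RIOX1 (ENSCAFG00000016842, chromosome 8, 46815125 to 46849991, plus strand) was at 22.1, 25.6 and 22.1 CPM under hypoxia and at 36.5, 36.4 and 33.4 CPM under normoxia, with no overlap. The log2 change was -0.61 ± 0.071 (adjusted p = 1.17e-08). Only 49.2% of its reads mapped uniquely, and unique reads alone gave -0.55 (adjusted p = 1.09e-05). Introns held 53.6% of its reads, with -0.57 ± 0.102 from exon reads and -0.62 ± 0.092 from intron reads. Its model also overlaps that of HEATR4, which had 2.25 against 2.57 CPM. RIOX2, which acts on another protein of the same subunit, moved the other way, from 49.1 ± 1.12 to 59.2 ± 1.148 CPM (0.27 ± 0.052, adjusted p = 5.38e-05).

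The product of JMJD4 hydroxylates a lysine of the translation termination factor eRF1. JMJD4 (ENSCAFG00000001187, chromosome 14, 1105283 to 1109960, plus strand) was at 20.6, 18.6 and 21.9 CPM under hypoxia and at 30.6, 30.8 and 28.1 CPM under normoxia. The groups were well apart, and the gene fell by 0.55 ± 0.074 (adjusted p = 1.82e-07). JMJD6 (ENSCAFG00000005139, chromosome 9, 4037439 to 4076123, plus strand), a lysyl hydroxylase of splicing factors, was at 132, 129 and 123 CPM under hypoxia and at 142, 149.5 and 141 CPM under normoxia. It fell slightly, by 0.17 ± 0.040 (adjusted p = 6.95e-04), without overlap of the groups. JMJD8, a protein of the endoplasmic reticulum lumen, was not called from gene reads (0.10 ± 0.057, adjusted p = 0.167). Exon reads alone gave 0.49 ± 0.098 (adjusted p = 6.78e-05), and the gene reads passed without hypoxia replicate 3 (0.15, adjusted p = 0.0240). Introns held 79.9% of its reads, and its model overlaps those of RHBDL1, STUB1 and WDR90. Of these, WDR90 was called higher by 0.62 and STUB1 by 0.24. KDM8, HSPBAP1 and the tRNA hydroxylase TYW5 were not called, with changes of 0.00 ± 0.209, 0.00 ± 0.057 and 0.10 ± 0.076. KDM8 had only 466 reads in all, fewer than any other tested member but BBOX1, and overlaps IL4R.

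ASPH hydroxylates aspartate and asparagine in EGF-like domains of secreted and membrane proteins, and its locus also makes isoforms without the catalytic domain, which gene reads do not separate. ASPH (ENSCAFG00000007197, chromosome 29, 11814554 to 12022680, minus strand) was at 384, 378 and 394 CPM under hypoxia and at 257, 254 and 261 CPM under normoxia. The groups were well apart, with a rise of 0.58 ± 0.034 (adjusted p = 1.13e-15), and exon reads alone gave 0.55. OGFOD2 fell by 0.39 ± 0.077 (adjusted p = 7.43e-05), from 23.7 ± 1.57 to 18.1 ± 0.339 CPM. OGFOD1, a prolyl hydroxylase of a protein of the small ribosomal subunit, was not called (-0.07 ± 0.071, adjusted p = 0.443).

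Of the 4 enzymes of small molecules, 1 rose and none of the other 3 was called. The share of rises, 25%, was near the 24.5% of all tested genes, of which 24.4% were called lower. PHYH (ENSCAFG00000023441, chromosome 2, 23185782 to 23253497, plus strand), the peroxisomal enzyme that starts the alpha-oxidation of phytanic acid, was at 916, 899.6 and 920.3 CPM under hypoxia and at 949, 947 and 946 CPM under normoxia. The groups were close but did not overlap, and the gene was not called (-0.05 ± 0.031, adjusted p = 0.15). It passed as lower when scaled by library size alone (-0.12, adjusted p = 9.70e-04). PHYH had the highest level of the 41 genes (178 TPM on average). Its relative PHYHD1 (ENSCAFG00000020023, chromosome 9, 54717434 to 54729533, minus strand), whose substrate is not well known, was at 9.68, 11.7 and 9.56 CPM under hypoxia and at 5.77, 6.54 and 6.84 CPM under normoxia. It rose by 0.69 ± 0.124 (adjusted p = 2.13e-05), and introns held 79.2% of its reads. TMLHE starts carnitine synthesis and BBOX1 ends it. TMLHE was at 30.0 ± 1.27 against 33.1 ± 3.36 CPM and was not called (-0.15, adjusted p = 0.0866). It passed as lower without normoxia replicate 3 (-0.20, adjusted p = 0.0345) and when scaled by library size alone (-0.21, adjusted p = 0.0124). BBOX1, with 49 reads under hypoxia and 28 under normoxia in all, was the lowest of the 41 genes at 0.26 TPM and was not called (0.72 ± 0.502, adjusted p = 0.247).

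Gene reads pool reads in exons with reads in introns, which come largely from unspliced RNA, so both kinds were also fitted apart and then compared in 1 model. KDM3A rose alike from exon (1.61 ± 0.052) and intron reads (1.63 ± 0.085), as did KDM4C (1.29 ± 0.055 and 1.27 ± 0.069). Exon and intron changes differed in 4 of 38 members with enough reads of both kinds, in each with the exon change more positive. Of all 12265 genes tested in this way, 2.99% had a more positive and 2.68% a less positive exon change, 5.67% in all. KDM4B rose by 1.78 ± 0.062 from exon reads and by 1.18 ± 0.059 from intron reads (difference 0.60 ± 0.081, adjusted p = 1.51e-06). KDM7A rose by 0.88 from exon reads, while intron reads gave 0.20 and were not called (difference 0.67 ± 0.196, adjusted p = 0.0316). JMJD8 gave 0.49 from exon and 0.01 from intron reads (difference 0.48 ± 0.104, adjusted p = 0.00257). JMJD4 fell by 0.39 in exon and by 0.93 in intron reads (difference 0.53 ± 0.158, adjusted p = 0.0366).

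The differences in KDM4B and JMJD8 passed without any 1 of the 6 libraries. That in JMJD4 passed in none of these 6 fits (adjusted p = 0.0674 to 0.148). That in KDM7A was lost without hypoxia replicate 1, hypoxia replicate 2, normoxia replicate 1 or normoxia replicate 3 (adjusted p = 0.0878, 0.131, 0.0730 and 0.162). The part of the overlapping genes named above in the differences of KDM4B and JMJD8 was not tested.

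**Figure D4:**
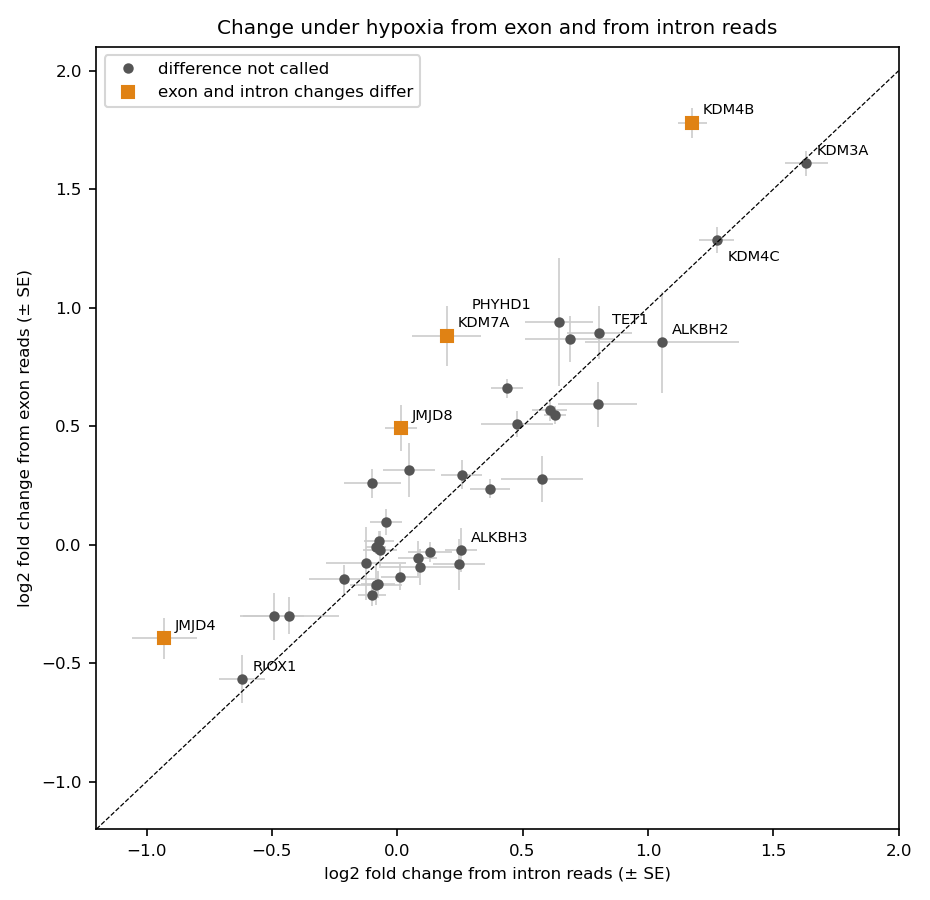
Log2 fold change from exon reads (y axis) against that from intron reads (x axis) for the 38 members tested in both, with bars of ± SE and a dashed line where both are equal. Orange squares mark the 4 genes whose exon and intron changes differed, KDM4B, KDM7A, JMJD8 and JMJD4, all above the line. KDM3A and KDM4C lie close to the line.

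The HIF and collagen hydroxylases use the same chemistry. In this list 9 of 14 genes rose and 2, EGLN2 (-0.20) and P3H3 (-0.41), fell (64.3% and 14.3%, against 24.5% and 24.4% of all tested genes). The median log2 change was 0.58. The falls numbered 0 without hypoxia replicate 3 and 1 without hypoxia replicate 2, normoxia replicate 1 or normoxia replicate 2. The largest changes among these were in EGLN3, a prolyl hydroxylase of HIF (3.498 ± 0.062), and PLOD2, a lysyl hydroxylase of collagen (2.40 ± 0.038). In that list 5 of 14 genes rose over 2-fold, against 3 of the 41 genes above and 4.81% of all tested genes. Whether the lists differ was not tested.

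Of 22 histone lysine methyltransferases, enzymes that add methyl groups to histone lysines, 12 fell and 3 rose (54.5% and 13.6%, against 24.4% and 24.5% of all tested genes). Their median change was -0.11. SETD1B, which methylates H3K4, fell from 63.3 ± 0.659 to 38.8 ± 1.36 CPM (-0.71 ± 0.054, adjusted p = 8.79e-13). SUV39H1, which trimethylates H3K9, fell from 26.2 ± 0.691 to 17.3 ± 0.770 CPM (-0.60 ± 0.074, adjusted p = 4.66e-08). KMT2A (0.19), KMT2C (0.28) and KMT5C (0.40) rose. In the list of m6A writers and readers, 7 of 14 genes were lower and 2 higher (50% and 14.3%, against 24.4% and 24.5% of all tested genes), with -0.12 as the median. METTL16 fell by 0.52 ± 0.067 (adjusted p = 7.07e-08). METTL14, the partner of the catalytic subunit METTL3 in the m6A writer, fell by 0.49 ± 0.061 (adjusted p = 6.67e-08), and METTL3 by 0.31. The 2 rises, YTHDF3 (0.12) and YTHDC1 (0.12), are readers of m6A. Other readers did not rise: YTHDF2 (-0.27) and YTHDC2 (-0.17) fell, and YTHDF1 was not called (-0.07). The list had 1 gene higher without hypoxia replicate 2 or normoxia replicate 1, and 0 without hypoxia replicate 3, without normoxia replicate 2 or when scaled by library size alone.

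In the list of DNA methylation and its removal, which also holds the flavin-dependent demethylases KDM1A and KDM1B, 2 of 11 genes were higher and 3 lower, with 0.03 as the median. These shares, 18.2% and 27.3%, lie near those of all tested genes (24.5% and 24.4%). GADD45A (0.71 ± 0.075, adjusted p = 1.53e-09) and GADD45B (0.66 ± 0.087, adjusted p = 1.13e-07), stress-induced genes tied to DNA repair, rose. DNMT3B (-0.26), UHRF1 (-0.18) and SMUG1 (-0.22) fell, while DNMT1 (0.03), KDM1A (0.07) and KDM1B (-0.09) were not called. KDM1A and KDM1B use flavin and oxygen instead of 2-oxoglutarate.

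Enzymes that make or use 2-oxoglutarate, succinate and fumarate showed 7 of 14 genes lower and 2 higher (50% and 14.3%, against 24.4% and 24.5% of all tested genes), with a median of -0.10. Among the rises was the mitochondrial isocitrate dehydrogenase IDH2, which makes 2-oxoglutarate (1.37 ± 0.035, adjusted p = 1.98e-25). The falls were in GOT1 (-0.46), IDH3A (-0.45), GOT2 (-0.45), DLST (-0.30), FH (-0.26), SDHB (-0.24) and SDHC (-0.13). SDHA, the catalytic subunit of succinate dehydrogenase, was not called (-0.07, adjusted p = 0.0972). IDH3B, OGDH, SDHD and GLUD1 matched no symbol and were not analysed here.

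**Figure D5:**
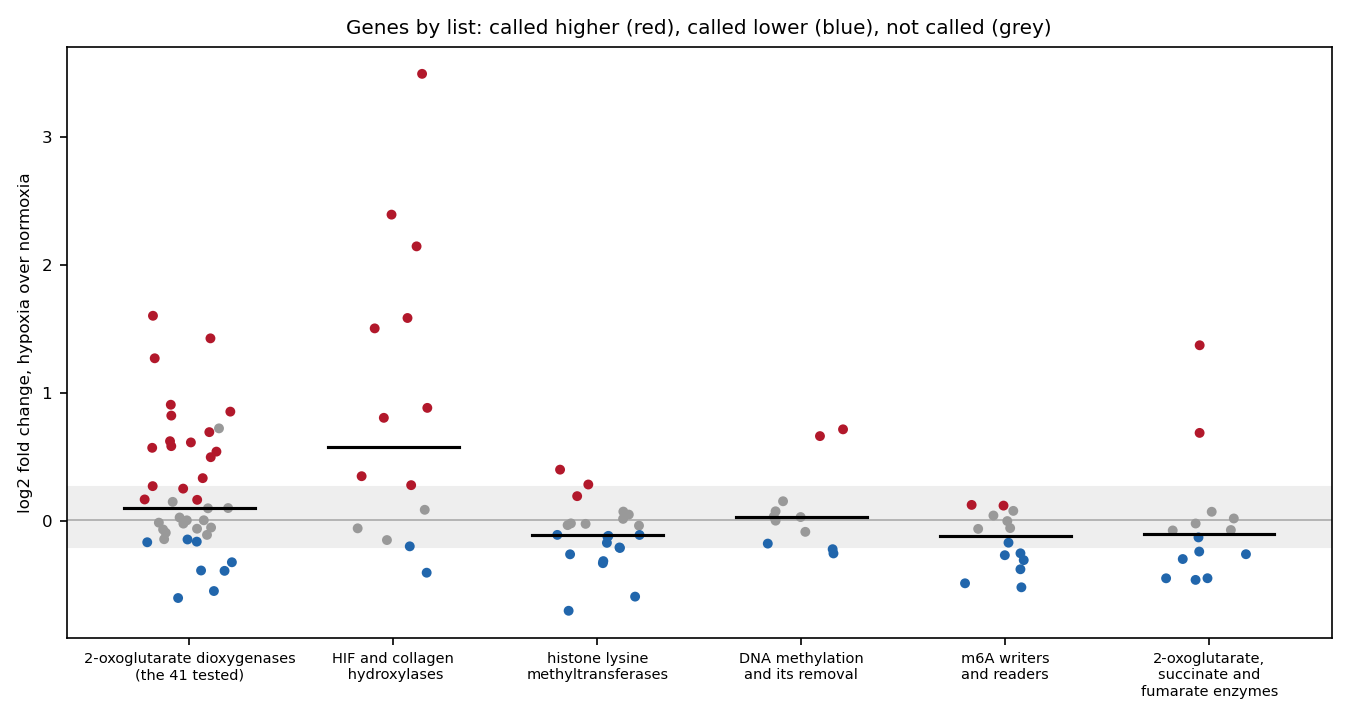
Log2 fold change of each tested gene (points, y axis) in the 41 dioxygenases and in 5 lists of related genes, with a line at each list's median. The grey band spans the middle 50% of all tested genes (-0.20 to 0.27). Medians lie at 0.10 for the dioxygenases, 0.58 for the HIF and collagen hydroxylases, -0.11 for the histone lysine methyltransferases, 0.03 for DNA methylation, -0.12 for m6A and -0.10 for the enzymes of 2-oxoglutarate, succinate and fumarate.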

How the data were processed

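RNA was sequenced in 3 hypoxia and 3 normoxia libraries of CMM10, and groups and replicate numbers came from the sample titles. The deposited files hold raw counts of reads for each gene model, in total and uniquely mapped, with exon and intron reads apart (per the file headers). The build is CanFam3.1 per the submitters' processing notes, and for the aligner and counter the name is not given in the sources used here. The deposited TPM matched total exon reads over exon length within 1% for all genes over 1 TPM. The kit in the labels' protocols does not mark strand.

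Total gene reads were filtered with filterByExpr, scaled by TMM and tested with edgeR 4.0.16 in R 4.3.3 (glmQLFit and glmQLFTest, robust), at a Benjamini-Hochberg adjusted p below 0.05 over 15397 genes. Adjusted p-values in the text are from this fit unless another is named. Exon and intron changes were compared in 1 edgeR model with a term for each library. Alternatives were DESeq2 1.42.0, other scalings and filters, exon or unique reads, a replicate block and leaving out each library. Members and lists were chosen with earlier results of these data known. Values per library are given for called members with an absolute log2 change of at least 0.4 and a mean of at least 1 CPM and for each role's member of highest TPM. For each related list, the 2 called genes with the largest change are named, except 1 gene that is not reported here, and other list genes were chosen after their values were seen. No genome, promoter or protein sequences were used here. Replicates of a group differed by more than sampling noise (chi-square per degree of freedom 4.29 to 13.7), so none was taken for a copy of another. This does not show that they came from separate cultures. The KDM3 and KDM4 shares with HR and KDM4D were added after seeing the data.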

Additional observations from a re-analysis of the deposited data

How the results depend on the processing

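Of the 26 called members, 26 kept call and direction with DESeq2, RLE factors, no count filter, unique reads only and the replicate block, 25 with exon reads only, 24 with library size only and 22 to 26 without 1 library. Library size as the only scaling gave 13 members lower and 0 m6A genes higher, with 4862 of all 15397 tested genes lower and 3076 higher. Without 1 library, 6 to 8 members were lower, 17 to 18 higher and 2 to 3 differed between exon and intron reads. Of all 15633 to 15676 genes tested in these fits, 3361 to 3585 were lower and 3416 to 3598 higher. The matching counts over all genes for exon against intron reads were not computed. The 3 that differed without normoxia replicate 1 included a member outside the 4 named above. The HIF and collagen hydroxylases then had 0 to 2 genes lower and the m6A list 0 to 2 higher. The cause of these changes was not tested. One called gene changed sign, ALKBH3 from exon reads (-0.022). Other sign changes were in genes not called: KDM3B from exon reads (0.015), KDM5A with library size only (-0.042), KDM8 with library size only (-0.065), no filter (-0.0024), exon reads (-0.024), unique reads (-0.032) and the replicate block (-0.0093), HSPBAP1 with library size only (-0.064), no filter (-0.0018) and exon reads (-0.058), and TYW5 from exon reads (-0.083). Without 1 library the values ranged from -0.0035 to 0.057 in KDM5A, -0.19 to 0.14 in KDM8 and -0.037 to 0.044 in HSPBAP1. Equal replicate numbers showed no sign of pairing (correlations of deviations -0.0853, 0.0263 and -0.0491), and the replicate block gave 18 members higher and 8 lower, as without it. Depth limits BBOX1, KDM8 and ALKBH2 most.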

Other observations

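Family members that the list of 44 names did not hold were looked up after the data were seen. KDM4D, which lacks the reader domains of KDM4A, KDM4B and KDM4C, fell from 14.5 to 8.84 CPM (-0.72 ± 0.102, edgeR adjusted p = 5.35e-07), in the direction opposite to KDM4B and KDM4C. JMJD7 fell by 0.35 ± 0.113 (adjusted p = 0.0116 by edgeR). HR, a JmjC corepressor known from hair follicles, rose from 87.0 to 101.7 CPM (0.23 ± 0.043, adjusted p = 5.45e-05 by edgeR).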
